A study of Mus musculus with 25 samples.

Results

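Hi-C contacts between loci at least 500 kb apart were taken from the high-confidence interaction lists of mouse embryonic fibroblasts (MEF) and mouse embryonic stem (ES) cells. A contact here is a pair of 10 kb bins of one chromosome, and it was included when the starts of its 2 bins lay 500 kb or more apart. The MEF list held 668 such contacts among 228083, and the ES list held 81 among 318622. Together they made 716 different bin pairs among 419265 pairs in either list, since 33 were in both.

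Hi-C ligates DNA fragments that neighbour each other in the fixed nucleus, and sequencing then counts the ligated pairs. Most contacts fall within topologically associating domains (TADs), stretches of chromosome that are thought to form when cohesin extrudes DNA loops until it is held at sites bound by CTCF. Contacts between distant loci can join a gene to remote enhancers, join the 2 ends of a large domain, or bring together sites of similar chromatin such as silenced developmental genes in pluripotent cells.

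The study followed KLF4, a reprogramming factor, and chromatin contacts from fibroblasts to pluripotent cells with 25 libraries, of which 4 were Hi-C and 21 HiChIP (Hi-C followed by an antibody). The MEFs came from E13.5 embryos of the rtTA3-OKSM line and carried 1 copy each of the Oct4-GFP reporter, the doxycycline-inducible OKSM cassette and rtTA3. They were grown in low oxygen and collected at passage 3. ES cells were V6.5 cells grown in 2i medium, which keeps them in a naive state. Each had 2 Hi-C libraries, made with the Arima kit from cells fixed in formaldehyde. The HiChIP lists used for comparison were H3K27ac (a mark of active promoters and enhancers) in MEF (2 libraries), in ES (2) and in V6.5 cells labelled TKO, grown in 2i without dox (3) or with dox for 24 h (3), and KLF4 at day 3 of reprogramming (3), at day 6 (4) and in ES (4). The reprogramming cells were the same MEFs given dox and ascorbic acid, and those of day 6 were sorted by the surface marker SSEA1. The labels do not say whether replicates were separate cultures or embryos, so p-values measure only the spread between these libraries.

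At the bins of 4 pluripotency genes, Nanog, Sall4, Dppa5a and Esrrb, the ES H3K27ac list had 35, 27, 19 and 94 contacts and the MEF list 2, 0, 0 and 0. At the fibroblast genes Thy1, Col1a1, Vim and Pdgfrb the MEF list had 9, 17, 8 and 13 contacts and the ES list 0, 1, 0 and 3. The labelled cell types and their markers thus went the same way in these H3K27ac lists, and the Hi-C lists have no such marker.

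Promoters were few at these anchors, and 6 promoter sequences are shown for the contacts where one was central. In 4 contacts both anchors held the start of a protein-coding gene, 3 in the MEF list and 1 in the ES list, and the first 4 sequences come from 2 of them. The last 2 belong to genes whose start lay in one of the 5 MEF bins with the most partners. Sequences are from RefSeq on GRCm38.p6 (the mm10 build), 250 bases before to 50 after the gene start, 5′ to 3′ on the gene's strand. Capitals mark a 7-letter core of the CTCF motif on either strand. The cores searched were AGGGGGC and 2 variants of it: the first variant was AGGTGGC; the other was AGATGGC. They do not overlap each other.
Hs3st3b1, chr11:63922235-63922534, minus strand: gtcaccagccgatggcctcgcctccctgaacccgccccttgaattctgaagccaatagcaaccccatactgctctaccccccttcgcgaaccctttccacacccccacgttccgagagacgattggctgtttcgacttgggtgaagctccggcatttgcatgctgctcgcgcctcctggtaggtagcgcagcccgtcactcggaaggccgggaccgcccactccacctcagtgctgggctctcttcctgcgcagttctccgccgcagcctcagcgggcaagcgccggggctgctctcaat
Hs3st3a1, chr11:64435082-64435381, plus strand: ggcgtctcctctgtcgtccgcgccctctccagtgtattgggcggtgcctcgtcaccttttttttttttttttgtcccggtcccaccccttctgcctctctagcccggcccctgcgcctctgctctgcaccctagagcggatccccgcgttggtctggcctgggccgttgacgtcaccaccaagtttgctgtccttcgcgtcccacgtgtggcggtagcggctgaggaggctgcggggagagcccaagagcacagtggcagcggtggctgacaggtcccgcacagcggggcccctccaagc
Prkrip1, chr5:136198905-136199204, minus strand: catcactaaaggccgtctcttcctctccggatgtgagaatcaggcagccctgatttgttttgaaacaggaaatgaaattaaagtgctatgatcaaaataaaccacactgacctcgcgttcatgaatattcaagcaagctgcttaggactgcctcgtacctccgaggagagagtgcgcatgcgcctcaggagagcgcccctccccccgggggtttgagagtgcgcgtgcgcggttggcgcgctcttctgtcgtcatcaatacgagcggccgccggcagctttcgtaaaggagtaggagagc
Myl10, chr5:136692896-136693195, plus strand: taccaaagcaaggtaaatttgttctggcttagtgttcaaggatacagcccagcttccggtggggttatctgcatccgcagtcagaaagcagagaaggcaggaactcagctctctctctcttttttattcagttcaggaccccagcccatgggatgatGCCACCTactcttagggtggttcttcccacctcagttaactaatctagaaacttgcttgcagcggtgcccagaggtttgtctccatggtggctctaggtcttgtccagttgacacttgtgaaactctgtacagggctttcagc
Foxo1, chr3:52268087-52268386, plus strand: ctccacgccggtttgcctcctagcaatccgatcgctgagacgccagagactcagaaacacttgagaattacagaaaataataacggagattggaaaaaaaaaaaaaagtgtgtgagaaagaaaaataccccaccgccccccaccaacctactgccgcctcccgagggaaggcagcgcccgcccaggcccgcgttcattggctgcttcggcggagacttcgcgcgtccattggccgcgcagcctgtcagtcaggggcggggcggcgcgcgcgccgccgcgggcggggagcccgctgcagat
Plk2, chr13:110394794-110395093, plus strand: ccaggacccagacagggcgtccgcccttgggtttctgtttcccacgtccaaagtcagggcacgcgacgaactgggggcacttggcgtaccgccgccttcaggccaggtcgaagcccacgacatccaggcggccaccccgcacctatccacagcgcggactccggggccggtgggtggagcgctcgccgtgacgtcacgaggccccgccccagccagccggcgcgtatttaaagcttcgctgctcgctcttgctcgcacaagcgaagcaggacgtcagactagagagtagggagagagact

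Hs3st3b1 and Hs3st3a1 encode a pair of heparan sulfate 3-O-sulfotransferases, and the bins that hold their starts lay 510 kb apart with 17 and 14 counts in the 2 MEF libraries. RefSeq gives Myl10 3 starts in its anchor bin, and the promoter shown is the only one of the 3 with a core. Prkrip1 and the myosin light chain gene Myl10 lay 500 kb apart with 15 and 20 counts in the 2 ES libraries. The other 2 such contacts, both MEF alone, joined Trim13 to Gucy1b2 (11 and 11 counts, 860 kb) and Ctps2 to Zrsr2 on chromosome X (5 and 5 counts, 1050 kb). Of the 86 promoters in MEF anchors 19.8% held a core (95% Wilson interval 12.7 to 29.4%), and of the 18 in ES anchors 27.8% (12.5 to 50.9%), against 23.4% of all 21045 protein-coding promoters in the table. Both intervals hold the share over all promoters. Cores elsewhere in the 10 kb bins were not searched.

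Long contacts were a small fraction of both lists and a larger one in MEF. They were 0.293% of the MEF list (0.272 to 0.316%) and 0.0254% of the ES list (0.0205 to 0.0316%), although the ES list was the longer. At 200 to 500 kb the numbers were near each other, 6811 in MEF and 7424 in ES. From 500 kb to 1 Mb they were 623 and 80, and at 1 Mb or more 45 and 1. The median MEF distance was 620 kb and the longest 1510 kb, and in ES these were 550 kb and 1960 kb. The change across the 500 kb line was gradual, with 29 MEF contacts at 490 kb and 33 at 500 kb, and 12 and 8 ES contacts.

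**Figure D1:**
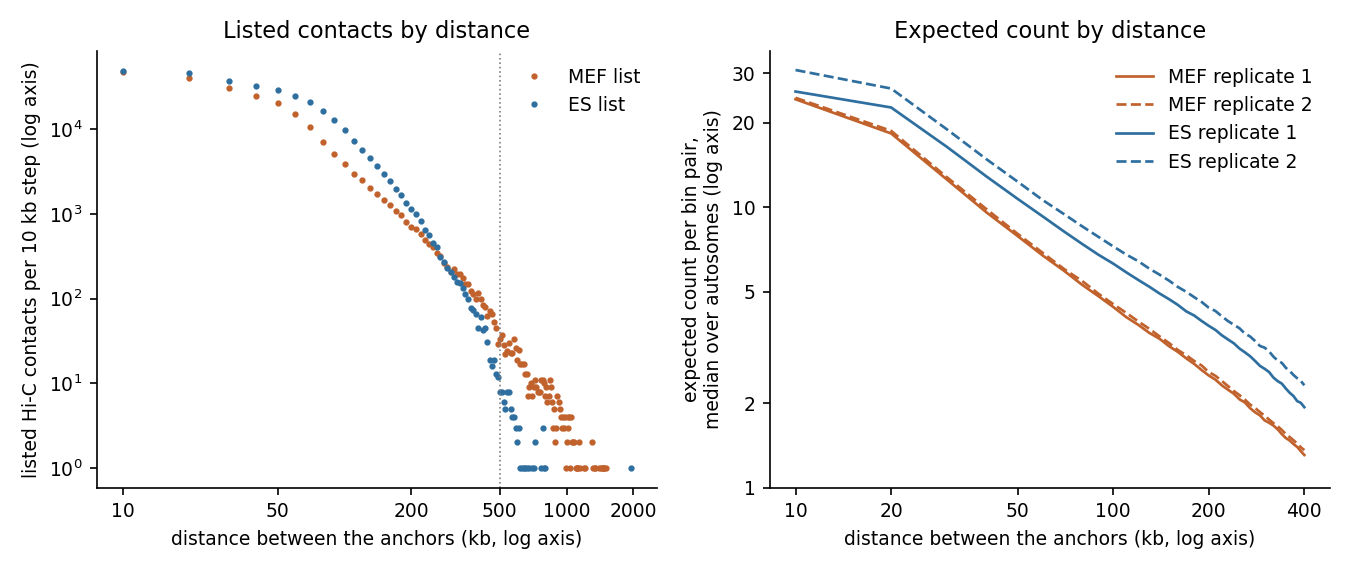
Left, number of listed Hi-C contacts at each 10 kb step of distance (both axes log) for the MEF list and the ES list, with a dotted line at 500 kb. Right, expected count of a bin pair at each distance in each library (both axes log, median over the autosomes that give a value), which is the deposited count divided by the deposited distance ratio. The MEF list holds more contacts than the ES list at every step from 290 to 500 kb, while the expected count is higher in both ES libraries at every distance drawn.

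Of all listed counts, long contacts held 0.179% in MEF replicate 1 and 0.178% in replicate 2. In ES they held 0.0133% and 0.0136%. Each pair of replicates was summed over 1 list made from both libraries, so the closeness of replicates and the gap between cell types follow from the lists, and no test is given. Over contacts in both lists alone the shares came closer, 0.0185% and 0.0168% in MEF and 0.0143% and 0.0143% in ES. Most of the difference was thus in contacts that only one list held.

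What could be listed differed between the cell types. Every listed contact had a deposited signal of at least 15 in both libraries, which is scaled per chromosome, so that the lowest listed count on an autosome was 11 to 13 in both MEF libraries but 12 to 22 and 14 to 18 in the ES libraries. It was highest in ES on chromosomes 8 and 11 (19 and 22 in replicate 1) and lowest on chromosome X (5, 5, 5 and 6). The expected count of a member's distance was also higher in ES, at a median of 1.32 and 1.58 against 0.930 and 0.960 in MEF, over the 42 pairs of autosome and distance at which both lists had a member. With 1 minimum of 22 counts for every library and chromosome, the members came down to 19 in MEF and 8 in ES. All 8 in ES were at the multi-copy loci on chromosomes 1, 4 and 10 described below, where counts are uncertain. With a deposited ratio to the expected count of 15 or more in both libraries they were 474 and 14. Both settings were chosen after the data were seen, and the MEF list kept the larger number under each.

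Members had high ratios to the expected count of their distance. The median deposited ratio was 19.8 in MEF (11.5 to 92.7) and 12.2 in ES (8.46 to 82.1), against 8.01 and 5.15 at 200 to 500 kb. The counts behind them were small, with a median of 14 in both MEF libraries and of 14 and 17 in the ES libraries. Since a minimum count over a falling expected count forces the ratio up with distance, the ratio describes the members and orders nothing between lengths. The same holds for the deposited FDR, which was under 0.1 for all 668 and all 81 members, for 96.0% and 63.1% of contacts at 200 to 500 kb and for 12.3% and 8.78% of all contacts under 500 kb.

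Long MEF contacts were on every chromosome, while those of ES were concentrated on few. The MEF number per autosome went from 8 on chromosome 17 and 11 on chromosome 6 to 58 on chromosome 5 and 65 on chromosome 1. In ES chromosome X had 26 and chromosome 10 had 15, chromosome 1 had 9, and 6 autosomes (3, 6, 7, 9, 16 and 17) had none. MEF had more members than ES on all 20 chromosomes. Per 1000 listed contacts the autosomes ranged from 0.768 to 4.98 in MEF (median 2.83) and from 0 to 1.09 in ES (median 0.167), and chromosome X had 2.41 and 0.930. The lowest listed count was also lower on chromosome X, and its part in these numbers was not tested. Without chromosome X the totals were 623 and 55.

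**Figure D2:**
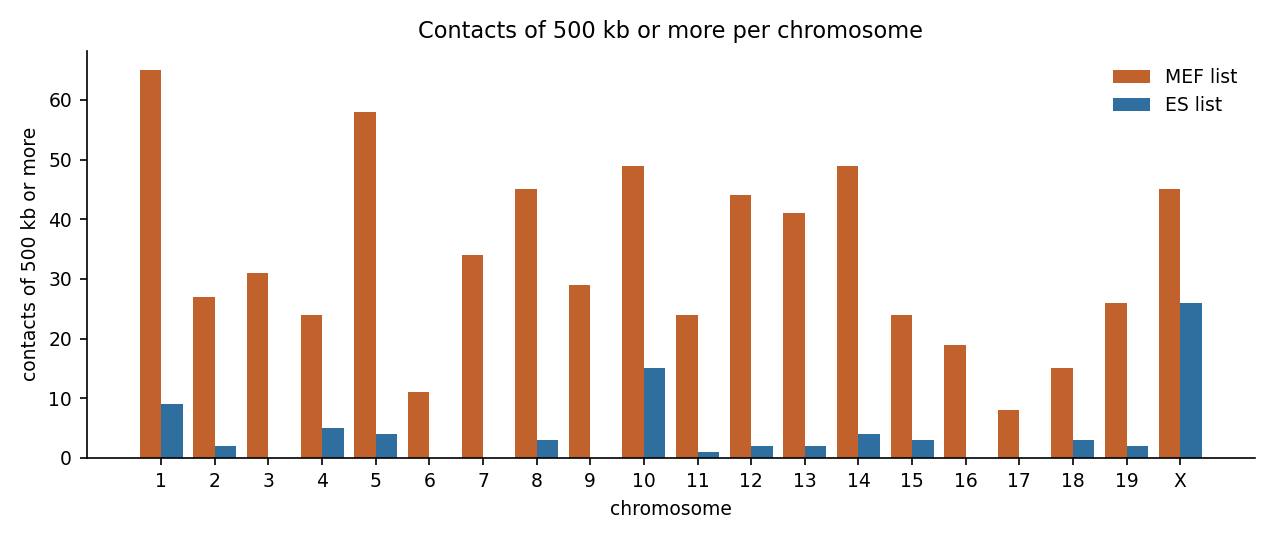
Number of Hi-C contacts of 500 kb or more (vertical axis) on each chromosome (horizontal axis) in the MEF list and the ES list, 1 bar per list. MEF bars reach 65 on chromosome 1, and the tallest ES bars are 26 on chromosome X and 15 on chromosome 10.

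Few members had the same bins in both lists. The 33 shared contacts were 4.94% of the MEF members (3.54 to 6.86%) and 40.7% of the ES members (30.7 to 51.6%). Among contacts under 500 kb, 56.0% of the MEF list and 39.997% of the ES list were shared. In MEF the shared percent fell with each class of length, from 60.8% at 10 to 50 kb through 26.2% at 200 to 500 kb to 5.30% at 500 kb to 1 Mb and 0 of 45 beyond. In ES it was 24.1% at 200 to 500 kb and 41.25% at 500 kb to 1 Mb. Intervals cover counting error only and treat contacts as separate, although neighbours are not.

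A strict match of bins missed near neighbours. With each anchor free to lie 1 bin away, 78 MEF members (11.7%) and 52 ES members (64.2%) had a counterpart, and with 5 bins 148 (22.2%) and 60 (74.1%). Merging members whose anchors were within 1 bin of each other gave 383 patches in MEF and 50 in ES, of which 241 and 35 were single contacts. By patches, 31 of 383 in MEF (8.09%) and 29 of 50 in ES (58.0%) had a counterpart within 1 bin. Of the 635 MEF contacts absent from the ES list, 42.0% had both bins in some other ES contact, and of the 48 ES contacts absent from the MEF list 83.3% had both bins in some MEF contact.

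The strongest shared contacts were at multi-copy loci on chromosomes 1 and 10. At chr10:57440001-57450000, in a stretch without a gene whose nearest is the heat shock factor gene Hsf2, 3 contacts reached 770 to 790 kb to the Duxf3 cluster. The longest of them had 19 and 30 counts in MEF and 32 and 51 in ES. At chr1:85080001-85090000, A530032D15Rik contacted Sp140 and Sp110, members of the SP100 family of nuclear body proteins. These had 29 and 24 counts (540 kb) and 24 and 22 counts (510 kb) in MEF, and 38 and 31 and 31 and 39 in ES. Both are families of near-identical copies, where reads may be assigned to the wrong copy, so the counts there are uncertain. Without the loci on chromosomes 1, 4 and 10 treated this way, a choice made after the data were seen, 661 members remained in MEF, 69 in ES and 26 in both.

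Among the other shared contacts, the first 4 below were named after their values were seen. Near the glucocorticoid-induced kinase gene Sgk1, the bin at 21460001 on chromosome 10 contacted that at 22000001 with 35 and 28 counts in MEF and 20 and 23 in ES. Iqca on chromosome 1, 530 kb from a bin near Cops8, had 31 and 23 counts in MEF and 13 and 16 in ES. Tsc22d1, a TGF-beta-induced leucine zipper gene, contacted a bin near Lacc1 at 500 kb with 23 and 21 counts in MEF and 12 and 15 in ES. Dusp4, a MAP kinase phosphatase gene, contacted a bin near Saraf at 600 kb with 21 and 22 counts in MEF and 23 and 17 in ES. After the 4 longest, of 780 to 800 kb at the Duxf3 locus, came a shared contact of 780 kb from the recombination gene Rad51b to a bin near Gm52006, with 18 and 17 counts in MEF and 12 and 18 in ES.

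No shared long contact passed the test for a change in count between the cell types, which does not show that their counts were equal. Counts of the 124204 contacts in both lists that passed a filter on low counts were compared with edgeR's quasi-likelihood test, which called 40 of them (0.0322%) at an adjusted p under 0.05. Of the 33 shared members 30 passed that filter, the 3 others being on chromosome X, and 0 of the 30 were called. At an unadjusted edgeR p under 0.05 there were 7 of the 30, all lower in ES, against 7542 of all 124204 contacts tested. With DESeq2 0 were called and 4 of the 30 had such a p, against 670 of all 124204. Among those with such a p, the number higher in ES differed with the edgeR scaling. It was 2 of 7 with the authors' scaling, where 8355 of all contacts had such a p. It was 3 of 7 with TMM factors from long contacts, where 22420 did, and 4 of 8 in a fit of long contacts alone. The last 2 settings are scaled on the shared long contacts themselves, which centres their values, so they cannot decide the direction. The log2 value, ES over MEF, was below 0 for 23 of the 30 and above 0 for 7, with a median of −0.42, against 0.00 over all contacts tested. Most of those above 0 were at the multi-copy loci on chromosomes 1 and 10, where counts are uncertain. The 33 shared members lay in 21 patches, so neighbouring bins of a locus count more than once in these numbers. With TMM factors from long contacts 18 were below 0 and 12 above (median −0.13, against 0.30 over all contacts), and in the fit of long contacts alone 17 and 13 (median −0.08). Members less all contacts came to −0.43, to between −0.43 and −0.40 under 4 other scalings of the libraries, and to between −0.48 and −0.31 with 1 library left out. A contact could enter this test only by passing the count minimum of both lists, which was higher in ES, and the part of that in these values was not tested.

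The lowest p belonged to Iqca, whose log2 value was −1.28 ± 0.32 (standard error derived from the p), with an edgeR adjusted p of 0.106 that ran from 0.0909 to 1.00 over the alternatives. The MEF libraries did not overlap the ES libraries there. A chromosome X contact from a bin near Egfl6 to one near Tlr8 had 17 and 14 counts in MEF and 7 and 7 in ES (edgeR log2 −1.52, adjusted p = 0.271). For the Sgk1 contact of 540 kb the edgeR log2 value was −0.94 (adjusted p = 0.372) and for Tsc22d1 at 500 kb −1.09 (adjusted p = 0.383). The largest values above 0 were at the Duxf3 locus, at 0.53 and 0.50.

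**Figure D3:**
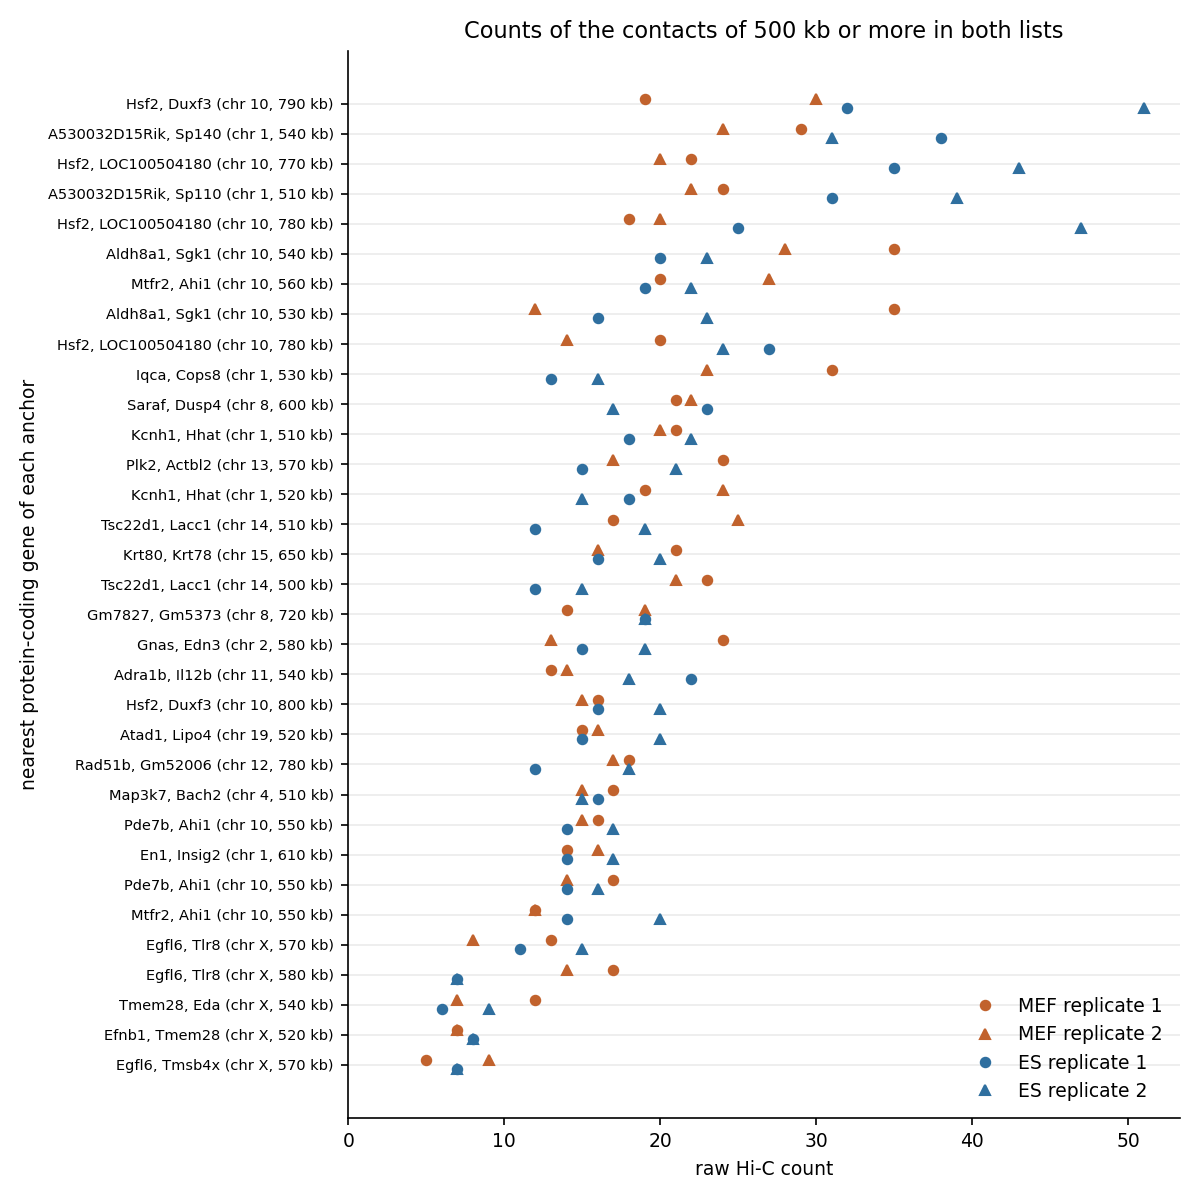
Raw Hi-C count (horizontal axis) of each of the 33 contacts of 500 kb or more in both lists, in the 2 MEF and 2 ES libraries, with circles for replicate 1 and triangles for replicate 2. Rows are named by the nearest protein-coding gene of each anchor and ordered by mean count, from 51 at most at the Duxf3 locus to 5 at least on chromosome X.

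Contacts in the MEF list alone numbered 635, and their anchors were both in and between genes. The 5 with the highest counts had a mean of 28 each. Enc1, a kelch protein gene, and Arhgef28 on chromosome 13 were joined over 690 kb with 35 and 21 counts. A bin 5044 bases from the polo-like kinase gene Plk2 was joined over 1030 kb to one near Gpbp1 with 31 and 25. On chromosome 18 a bin near Stard4 and one near Epb41l4a had 23 and 33 at 550 kb, and on chromosome 5 a bin near Adgrd1 and the metalloproteinase gene Mmp17 had 28 and 28 at 520 kb. On chromosome 9 a bin near Spata19 and the cell adhesion gene Opcml had 26 and 30 at 830 kb. None of these had an ES member within 5 bins at both anchors.

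The longest MEF contacts had counts in the range of the other members. The longest of all, 1510 kb, ran from the start of Fat4, an atypical cadherin gene, to a bin 131291 bases from Intu, with 13 and 15 counts. The next 4 formed one locus on chromosome 7, from chr7:35870001-35910000, nearest to Zfp507, into the body of the zinc finger gene Zfp536 at 1450 to 1480 kb. The strongest of them had 16 and 21 counts and the highest ratio of any MEF member, 92.7. Among all 45 contacts of 1 Mb or more, the anchors' nearest genes included Gata3, Mef2c, Vcan, Tnc, Fgf9 and Col12a1, named after the values were seen. They are a selection, their distances from the anchors are not given, and a nearest gene need not lie in its anchor. An anchor nearest to Tnc held no gene. Counts over these 45 were 5 to 31, and the 3 lowest were on chromosome X.

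The largest patches of neighbouring MEF contacts were named after their values were seen. The largest held 10 contacts of 890 to 940 kb between a region beside Med13l (chr5:118770001-118810000), a Mediator subunit gene, and one at and beside the T-box gene Tbx3 (chr5:119680001-119720000), with 12 to 33 counts. Only the contact of 900 kb with 24 and 12 counts overlapped Tbx3 itself. No ES member lay within 2 bins of any of the 10. Of patches with 5 contacts or more MEF had 20 and ES 3. Those of MEF with 5 contacts and no ES counterpart within 2 bins included one from a region beside Pdgfra, the gene of a growth factor receptor of mesenchymal cells, to one whose nearest gene was Kdr; no bin of it overlapped either gene (630 to 660 kb, 12 to 22 counts). Another ran from a region at Fgfr2 to one near Wdr11 (610 to 630 kb, 12 to 25 counts) and another from Myo16 to a region near Col4a1 (750 to 770 kb, 12 to 22 counts). All 6 contacts of the Atad1 patch and all 7 of the Tsc22d1 patch had an ES member within 2 bins.

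Most anchors had few long partners. Of the 938 MEF anchor bins 29.2% had 2 or more, and of the 129 ES bins 19.4%. The most partners, 9, belonged to a bin on chromosome 1 at 189020001, 12103 bases from Kctd3, whose partners lay 550 to 650 kb away with 12 to 28 counts, and which had 0 long partners in ES. The Foxo1 bin, whose promoter is printed above, followed with 7 partners at 580 to 740 kb and 12 to 21 counts. That forkhead factor's bin had no contact in either the MEF or the ES H3K27ac list. A bin 98 bases from Sgk1 had 6 partners in MEF and 2 in ES, the Plk2 bin 5 and 1, and a bin in Dusp4 5 and 1. In ES the most was 5, at a chromosome X bin near Tlr8 with counts of 6 to 15, and the same bin had 4 long partners in MEF. The other ES bins named by this rule had 3 partners, at the Duxf3 locus, near Zfp987, near Aldh8a1 and near Tmem28.

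Contacts in the ES list alone numbered 48, and the strongest were at a zinc finger gene cluster. On chromosome 4, Gm42346 contacted a bin near Zfp987 over 610 kb with 45 and 43 counts and over 620 kb with 24 and 47. The one ES contact above 1 Mb was in the same cluster, 1960 kb from a bin near Gm13212 to one near Zfp982 with 14 and 16 counts. That cluster also holds near-identical copies, so these counts are uncertain. On chromosome 1, A530032D15Rik contacted the Sp110 and Sp140 bin of the multi-copy locus above at 500 kb with 16 and 23 counts, next to the shared contacts there. Outside these loci, a bin on chromosome 8 near Spaca7 had 21 and 18 counts at 570 kb with a MEF member within 1 bin. Skor2 on chromosome 18, a co-repressor gene of the nervous system, had 19 and 19 counts at 520 kb to a bin near Smad2, with no MEF member within 5 bins. The next longest in ES alone were on chromosome X at 680 to 720 kb, at bins whose nearest genes included Bcor and Awat2, with 5 to 7 counts each.

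Anchors lay in genes less often than bins of shorter contacts. Of the MEF anchor bins 45.4% (42.3 to 48.6%) overlapped a protein-coding gene, against 59.4% at 200 to 500 kb and 59.9% of all bins in the list. In ES these were 46.5% (38.1 to 55.1%), 61.1% and 63.6%. A gene start was in 7.57% of MEF anchors (6.04 to 9.44%) and 9.30% of ES anchors (5.40 to 15.6%), against 8.94% and 10.3% of all bins. In all, 285 of 21631 protein-coding genes overlapped a MEF anchor (1.32%) and 50 an ES anchor (0.231%).

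Developmental regulators, many of them known Polycomb targets in ES cells, were found at few anchors. Of 186 in the list, 8 overlapped a MEF anchor (4.30%, 2.195 to 8.26%), among them Dlx5, Evx2, Foxc1, Irx1, Nkx3-2, Nkx6-1 and Zfpm2. Of those named, all but Zfpm2, which codes for a GATA cofactor, encode DNA-binding transcription factors. The share over all protein-coding genes was 1.32%. Only Skor2 overlapped an ES anchor (0.538%), against 0.231% of all genes. Dlx5, a factor of limb and bone development, contacted Dync1i1 over 880 kb with 14 and 17 counts. Foxc1 had 19 and 12 at 610 kb, Nkx3-2 17 and 12 at 640 kb, Evx2 15 and 15 at 580 kb, Irx1 15 and 12 at 510 kb, and Nkx6-1 13 and 13 at 670 kb. None of the contacts given here was in the ES list, and none had an ES member within 2 bins. With a gene allowed 1 bin from the anchor, En1, Hoxd13, Pou3f1, Pax9, Six3 and Emx2 were added in MEF and Pax9 in ES. The authors' own bin annotation comes with the TKO lists, so it can name a gene only at bins with an H3K27ac contact there. It named 32 genes at MEF anchors and none of the list at an anchor of either cell type. Genes at bins outside the TKO lists could not be found this way.

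The other gene lists had 0 to 3 genes each at long anchors, to be read against 1.32% of all protein-coding genes in MEF and 0.231% in ES. Of 25 pluripotency genes, Mycn and Tbx3 overlapped MEF anchors (8%, 2.22 to 25.0%) and none an ES anchor. Mycn, a MYC family factor, contacted a bin near Cyria at 510 to 530 kb with counts of 11 to 21. Of 27 fibroblast genes, Snai2 (16 and 15 counts at 550 kb) and Runx2 (11 and 11 counts at 640 kb) overlapped MEF anchors (7.41%, 2.06 to 23.4%) and none an ES anchor. Snai2 is a transcription factor of mesenchymal cells and Runx2 one of bone. Of 53 keratin genes, Krt10, Krt78 and Krt80 overlapped MEF anchors (5.66%, 1.94 to 15.4%) and Krt78 an ES anchor (1.89%, 0.334 to 9.94%). The keratin genes Krt80 and Krt78 were joined over 630 and 640 kb in MEF with 13 and 14 and 13 and 12 counts, the only members with a gene of one list at both anchors. The bin next to Krt80 contacted Krt78 over 650 kb in both lists, with 21 and 16 counts in MEF and 16 and 20 in ES. No anchor overlapped an olfactory receptor gene (0 of 1110), a vomeronasal receptor gene (0 of 230 and 0 of 123), a clustered protocadherin gene or one of the 6 X-linked long-range loci in either list.

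Long contacts crossed TAD borders more often than shorter ones, and many joined the 2 ends of a TAD. By anchor midpoints in the TAD list of the same cell type, 195 of 623 MEF members had their anchors in different TADs (31.3%, 27.8 to 35.0%), against 9.00% at 200 to 500 kb and 0.831% at 100 to 200 kb. The 45 MEF members on chromosome X had no TADs in the MEF list. In ES it was 19 of 81 (23.5%, 15.6 to 33.8%), against 11.02% and 1.80%. Most crossed 1 boundary, and 20 MEF members crossed 2. Of the MEF members of 1 Mb or more 27 of 42 crossed (64.3%, 49.2 to 77.0%). The median TAD was 560 kb in MEF and 600 kb in ES, and a longer pair has more chance to span a boundary whatever its strength. A pair of 500 kb or more inside a TAD of that length must have its anchors near the 2 ends. The share at the 2 ends, given below, thus also depends on length, and by how much was not tested.

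Many of the crossings were at anchors beside the boundary itself. When a boundary within 40 kb of an anchor midpoint was not counted, 11.1% of MEF members (8.85 to 13.8%) and 3.70% of ES members (1.27 to 10.3%) still crossed one, against 0.126% and 0.647% at 200 to 500 kb. Both anchors lay within 40 kb of a boundary in 36.1% of MEF and 32.1% of ES members, against 15.1% and 12.5% at 200 to 500 kb. At least 1 did in 82.0% and 72.8%, against 58.5% and 55.8%. Anchors within 40 kb of the start and of the end of the same TAD were found in 201 MEF members (32.3%, 28.7 to 36.0%) and 26 ES members (32.1%, 22.9 to 42.9%), against 15.05% and 12.4% at 200 to 500 kb. Of these, 64 and 8 also counted as crossing. The Med13l to Tbx3 patch had 9 of 10 contacts of that kind, the Kctd3 patch all 9 and the Tsc22d1 patch all 7, while all 9 of the Rad51b patch crossed a boundary and none was of that kind.

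**Figure D4:**
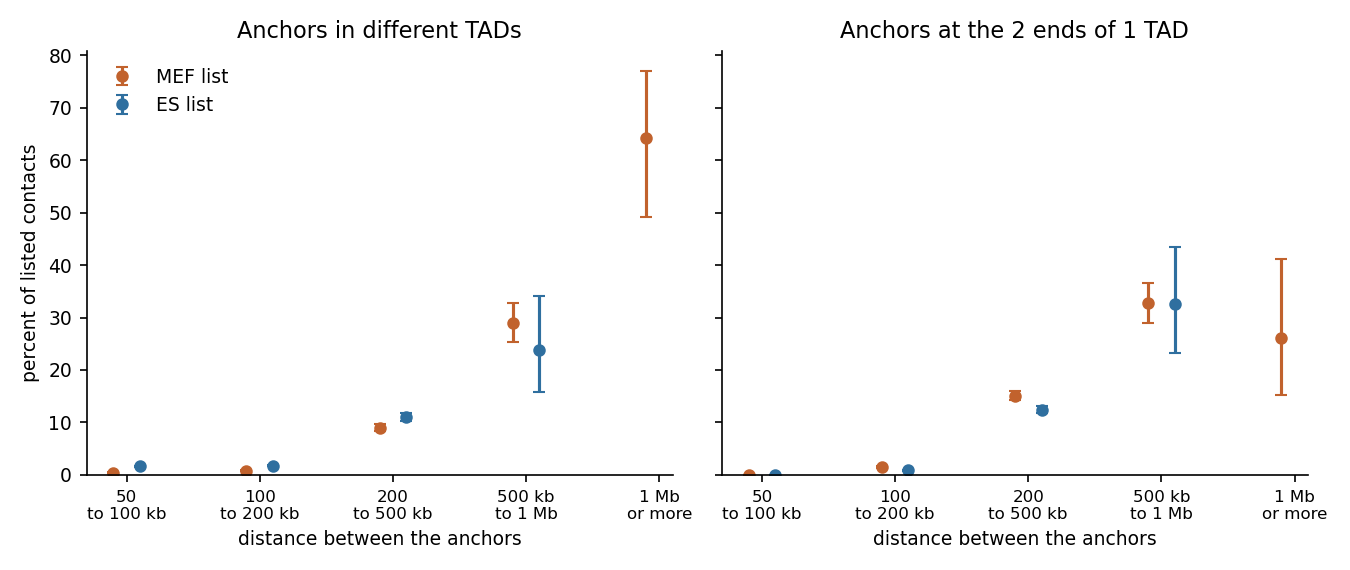
Percent of listed Hi-C contacts (vertical axis) in classes of distance (horizontal axis) whose anchors lay in different TADs (left) or within 40 kb of the 2 ends of one TAD (right), by the TAD list of the same cell type. Points are the MEF and ES lists and bars are 95% Wilson intervals, and the 1 ES contact above 1 Mb is not drawn. In MEF the crossing share goes from 9.00% at 200 to 500 kb to 28.9% at 500 kb to 1 Mb and 64.3% beyond.

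Few long Hi-C contacts were also in a HiChIP list. Of the MEF members 38 were in the MEF H3K27ac list (5.69%, 4.17 to 7.71%), against 5.30% at 200 to 500 kb and 12.6% of all shorter contacts. The ES H3K27ac list held 5 of the MEF members (0.749%), against 1.73% of MEF contacts at 200 to 500 kb. TKO without dox held 14 (2.10%, against 3.13%) and TKO with dox 10 (1.497%, against 2.67%). KLF4 at day 3 held 10 (1.497%, against 1.89%), KLF4 at day 6 0 (against 0.191%) and KLF4 in ES 2 (0.299%, against 1.10%). The day 6 list had 4047 contacts, against 23720 at day 3 and 24589 in ES. In total 51 MEF members (7.63%) were in some HiChIP list, 46 in an H3K27ac list and 12 in a KLF4 list, with 7 in both kinds. Such totals were not computed for shorter contacts.

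ES members were also few in these lists, and their intervals are wide. The MEF H3K27ac list held 8 of the 81 (9.88%, 5.09 to 18.3%), the ES H3K27ac list 3 (3.70%, 1.27 to 10.3%), the TKO lists 6 and 5, and the KLF4 lists 1 at day 3, 0 at day 6 and 2 in ES. At 200 to 500 kb the ES contacts were at 2.51% in the MEF H3K27ac list and 1.76% in the ES H3K27ac list. The TKO lists without and with dox held 7.41% and 6.17% of the ES members, against 2.87% and 2.49% at that distance. The KLF4 lists at day 3, at day 6 and in ES held 1.23%, 0% and 2.47%, against 0.997%, 0.148% and 1.08%. Of the 33 shared members 6 were in the MEF H3K27ac list (18.2%, 8.61 to 34.4%), against 32 of the 635 MEF members outside the ES list (5.04%, 3.59 to 7.03%). All 6 count among the 8 ES members there. None of the HiChIP lists, H3K27ac or KLF4, shares a library with the Hi-C lists. A contact absent from a list may have had any value under its filters.

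The members with H3K27ac in MEF included the following, named after their values were seen. The AP-1 gene Jun contacted Fggy over 810 kb, with 18 and 15 Hi-C counts and 14 and 26 H3K27ac HiChIP counts. A bin near Fosl2, another AP-1 gene, was joined to Slc4a1ap over 630 kb with 19 and 18 Hi-C and 20 and 38 HiChIP counts. The secreted protease gene Adamts1 contacted bins 620 and 840 kb away, the first with 19 and 20 Hi-C and 17 and 13 HiChIP counts. Snai2, Col8a1, a collagen gene, and Rspo3, a WNT signalling enhancer, each had 1 such contact. Trib2 to Lpin1 on chromosome 12, at 720 kb, had 19 and 12 Hi-C counts and 24 and 39 HiChIP counts.

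Some loci recurred across antibodies and cells. The contact from Plk2 to a bin 570 kb away, in both Hi-C lists with 24 and 17 counts in MEF and 15 and 21 in ES, was in the MEF H3K27ac list with 27 and 37 counts. It was also in both TKO lists, with 25, 19 and 18 counts and 20, 19 and 22, and in the day 3 KLF4 list with 18, 42 and 46. It was absent from the ES H3K27ac and ES KLF4 lists. The Tsc22d1 contact of 500 kb was in all 4 H3K27ac lists, with 22 and 31 counts in MEF and 27 and 24 in ES, and in the ES KLF4 list with 12, 8, 9 and 5. The zinc finger cluster contact of 620 kb on chromosome 4 was in the ES H3K27ac, both TKO and ES KLF4 lists and in no MEF list. Mycn to the bin near Cyria was in the day 3 KLF4 list alone, with 12, 19 and 24 counts and 11 and 18 Hi-C counts in MEF. Adra2a to Gpam, 1020 kb, was the longest member with KLF4, in the ES KLF4 list with 7, 6, 3 and 9 counts, while its Hi-C counts of 23 and 13 were in MEF.

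The HiChIP lists held long contacts of their own that the Hi-C lists lacked. Of the 124 in the MEF H3K27ac list 38 were in MEF Hi-C (30.6%, 23.2 to 39.2%), against 47.1% of that whole list. Of the 39 in the ES H3K27ac list 3 were in ES Hi-C (7.69%, 2.65 to 20.3%), against 51.2%. Per 1000 contacts the MEF H3K27ac list had 2.04 long ones and the ES H3K27ac list 0.517, with 0.665 and 0.380 in the TKO lists. KLF4 lists had 1.01 at day 3, 0 at day 6 and 0.122 in ES. The order of MEF above ES was thus the same in H3K27ac HiChIP as in Hi-C. The lists had filters of their own and there was 1 list per group, so no test was made. The spread over chromosomes was not the same. Chromosomes 13, 16 and 19 held 66 of the 124 long MEF H3K27ac contacts and 14 of the 39 in ES. They held 25 of 62 and 10 of 32 in the TKO lists without and with dox. In the KLF4 lists they held 12 of 24 at day 3 and 1 of 3 in ES. These chromosomes were not set by a rule in advance, and their share of all contacts in the HiChIP lists is not given here. In MEF Hi-C these chromosomes held 41, 19 and 26 of the 668 members.

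**Figure D5:**
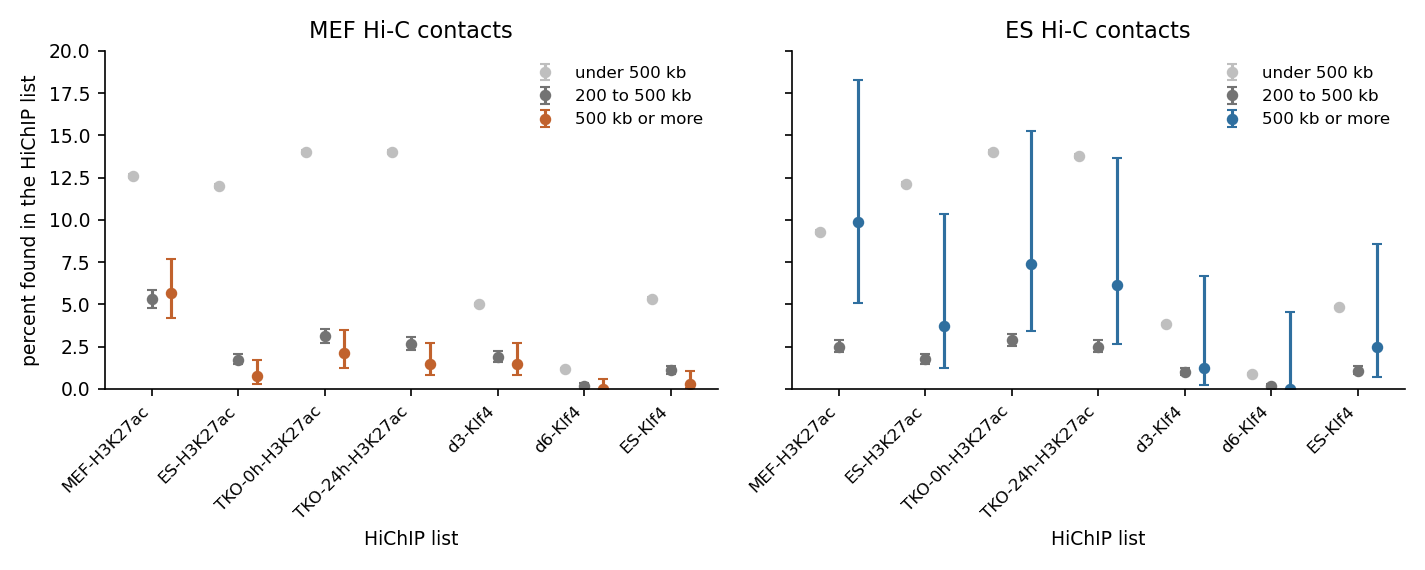
Percent of Hi-C contacts (vertical axis) of the MEF list (left) and the ES list (right) that were in each of the 7 HiChIP lists (horizontal axis), for contacts under 500 kb, of 200 to 500 kb and of 500 kb or more. Points are shares and bars 95% Wilson intervals. For MEF members the share is 5.69% in the MEF H3K27ac list and at most 2.10% in the other 6.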

How the data were processed

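Contact lists and TAD lists were used as deposited. Reads were aligned with Bowtie2 2.2.3 to mm10, per the submitters' processing notes. The contact caller, the TAD caller and the test behind the p-values are not given in the sources used here. Each list is 1 per group, built from all its libraries. Per the file headers, each contact has a raw count in every library. The authors' HiChIP lists also give CPM, which was read but not compared between lists. The Hi-C column that the authors' headers call cpm does not sum to what CPM would and is scaled per chromosome, so it was treated as a signal in unnamed units. The authors' distance ratio is the count over an expected count at that distance. The deposited p-value and FDR were used only to describe contacts. The deposited TAD score was not used.

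Members and gene lists were chosen with earlier results of these data known. Distances, sharing, TAD crossing (anchor midpoints) and HiChIP presence (both bins identical) were computed with Python 3.11.15 and pandas 2.3.3, and shares carry 95% Wilson intervals that cover counting error only. Genes and promoters are from RefSeq on GRCm38.p6, where 98.8% of the authors' gene and bin pairs lay within 1 bin of the RefSeq gene. Raw counts of contacts in both lists were tested with edgeR 4.0.16 (TMM, filterByExpr, quasi-likelihood test, Benjamini-Hochberg adjustment at 0.05) in R 4.3.3, with DESeq2 1.42.0 as an alternative, after tests on simulated data, in which edgeR recovered few of the 2-fold changes and most of the 4-fold ones. The exact permutation test planned for the share of counts in long contacts is not reported, since each list was made from both libraries. Listed counts per Hi-C library were 5576165 and 5635999 in MEF and 8525641 and 10015967 in ES. Named by rule were the 5 contacts with the highest mean count and the 5 longest in both lists, in MEF alone and in ES alone, the 5 bins with the most partners per list, and contacts with genes of one list at both anchors. Others are said to be chosen after their values were seen. 1 gene of the developmental list is counted but not reported here by name.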

Additional observations from a re-analysis of the deposited data

How the results depend on the processing

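Of 209 alternative values for 34 results, 130 stayed near the reported one, 79 moved and 0 reversed. Only results given as a difference could be scored as reversed. A change of order between the lists, as at 200 kb or more, was scored as moved. The values that stayed include settings that kept every member, such as an FDR under 0.1 for the number of members. At 1 Mb or more there were 45 MEF members (0.0197%) and 1 in ES (0.000314%), 0 in both lists (0% of each), and at 200 kb or more 7479 (3.28%) and 7505 (2.36%), where ES had the larger number. Among contacts with an FDR under 0.1, which keeps every member, the shares were 2.33% and 0.289%. Without chromosome X the ES share was 0.0189%. With a ratio of 15 or more the members were 68.8% of the MEF and 31.8% of the ES contacts left (14 in ES), and with 1 count minimum they were 19 (0.0196%) and 8 (0.00488%). Those 8 were all at the multi-copy loci. With anchors free by 1 bin 78 MEF (11.7%) and 52 ES members (64.2%) were shared, and by 2 bins 105 (15.7%) and 54 (66.7%).

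DESeq2 called 0 contacts of any length. It put 4 members at an unadjusted p under 0.05, against 670 of all 124204 contacts. With TMM factors from long contacts edgeR called 725 contacts of any length. It called 61 with the authors' scaling and 0 in a fit of long contacts alone. Leaving out 1 library gave 3 to 113, at 3 without MEF replicate 1, 6 without MEF replicate 2 and 113 without ES replicate 2. The replicate block gave 74. Replicate numbers were not taken as pairing, since the labels do not say that they mark a shared culture. Deviations of same-numbered libraries had a correlation of −0.000891, which cannot decide this where counts are low. In each of these fits 0 members were called.

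TAD crossing was 11.1% in MEF and 3.70% in ES when near boundaries were not counted, and 64.3% and 0% at 1 Mb or more. With anchors free by 1 bin, MEF members were at 12.4% in MEF H3K27ac, 3.74% and 4.04% in TKO without and with dox and 3.59% in day 3 KLF4, and ES members at 22.2% in MEF H3K27ac. With anchors looked up separately MEF members were at 12.4%, 4.79% (ES H3K27ac), 7.63%, 7.49%, 3.29% and 2.99% (ES KLF4), and ES members at 19.8% in MEF H3K27ac. At 1 Mb or more MEF members were at 2.22% in MEF H3K27ac and ES KLF4 and at 0% in ES H3K27ac, TKO without dox and day 3 KLF4, and the ES member was in 0 lists. Protein-coding genes at anchors were 73 and 13 by gene start and 25 and 0 at 1 Mb or more. By the authors' annotation, which covers only bins of the TKO lists, they were 32 and 3. Developmental genes were 14 and 2 within 1 bin, 4 and 0 by start, and 0 and 0 by the other 2 settings. Leaving out bins with 10 or more partners changed nothing, since no bin had as many. The causes were not tested. Low counts, with a median of 14 in the MEF libraries, limit what the count test could call.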
